A study of Mus musculus and Homo sapiens with 32 samples.

Results

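Nuclear factor kappa B (NF-κB) subunits and their feedback inhibitors were followed in kidneys of mice with unilateral ureteral obstruction (UUO), a surgical model of renal fibrosis in which 1 ureter is tied. The set holds 10 genes, chosen by name: the subunit genes Nfkb1, Nfkb2, Rel, Rela and Relb, the inhibitor genes Nfkbia and Nfkbie, the atypical inhibitor-like genes Nfkbiz and Bcl3, and Tnfaip3, which encodes the deubiquitinase A20. All 10 were found among the 57180 genes of the obstruction experiment and all 10 passed the filter on low counts, as did 19256 genes in all. None of them was listed in the separate tables of HK-2 cells (379 genes) and of whole kidneys (410 genes), which were not used here. The kidneys came from mice labelled Pcmt1 fl/fl or Pcmt1 tKO, an abbreviation the labels do not spell out. Mice of each genotype formed 3 groups, Sham+DMSO (sham surgery), UUO+DMSO and UUO+LY2109761, with 3 bulk mRNA libraries a group and 18 in all. LY2109761 is an inhibitor of the transforming growth factor β (TGF-β) receptor kinases, and DMSO is a solvent. Pcmt1 encodes an L-isoaspartate methyltransferase, which acts on aged proteins. The labels used here give no promoter or Cre line, age, sex, dose or time after surgery. Nor do they say that replicates were separate animals, so a p-value here measures the spread between libraries of a group, and that spread may be technical.

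NF-κB is a family of dimeric transcription factors. Rela and Rel pair mainly with p50, the processed product of Nfkb1, in the canonical pathway, whereas Relb pairs with p52, the processed product of Nfkb2, in the noncanonical pathway. In resting cells the dimers are held in the cytoplasm by IκB proteins, among them IκBα (Nfkbia) and IκBε (Nfkbie). Stimulation by cytokines or Toll-like receptor ligands activates the IκB kinases, IκB is degraded and the dimers enter the nucleus. Nfkbia and Tnfaip3 are themselves textbook targets, so that their products close a negative feedback loop. Bcl3 and IκBζ (Nfkbiz) are nuclear proteins that join p50 or p52 dimers on DNA and modify transcription. In the obstructed kidney both tubule cells and infiltrating leukocytes are known to use the pathway.

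Because feedback of this kind acts through κB sites, the promoters of the members were searched for the decameric κB consensus on both strands, with overlapping matches counted at their own first base. RefSeq promoters (GRCm38.p6) reach from 250 bases before to 50 bases after a start site and were at hand for 7 of the 10 members, the others being Nfkb1, Relb and Nfkbiz. Of these 7 genes 6 held at least 1 match, beside 9.55% of 27025 genes, and 3 held at least 2 in a single window, beside 1.42% of these genes. By windows, 4 of the 10 of the members held at least 2, beside 1.22% of 32851; windows of a gene can overlap and share a match. Among genes of the other lists, a match was found in 10 of 18 textbook targets, 5 of 10 other IκB proteins and A20 partners, 3 of 14 receptors, 3 of 18 adaptors and ubiquitin ligases, 1 of 8 IκB kinases and activators, 1 of 8 ligands, 0 of 12 leukocyte markers and 0 of 10 tubule markers. The stretches below are shown because they carry upstream matches of 5 members, with Rela as the member without a match. They are written 5′ to 3′ on the strand of the gene, with the matching bases in capitals. Bases that GENCODE M21 assigns to an untranslated region were left out, except for Nfkb2, of which only a short site is given.
Nfkb2, chr19:46304692-46304721, plus strand: cgtcacGGGAATTCCCCccctcggggggcc
Rel, chr11:23770971-23771119, minus strand: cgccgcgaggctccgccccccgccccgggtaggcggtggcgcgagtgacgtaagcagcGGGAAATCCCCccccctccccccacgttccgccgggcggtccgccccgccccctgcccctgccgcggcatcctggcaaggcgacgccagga
Nfkbia, chr12:55492648-55492797, minus strand: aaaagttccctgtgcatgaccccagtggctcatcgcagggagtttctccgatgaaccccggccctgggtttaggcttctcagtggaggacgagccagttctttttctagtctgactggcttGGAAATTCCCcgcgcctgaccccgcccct
Nfkbie, chr17:45555550-45555699, plus strand: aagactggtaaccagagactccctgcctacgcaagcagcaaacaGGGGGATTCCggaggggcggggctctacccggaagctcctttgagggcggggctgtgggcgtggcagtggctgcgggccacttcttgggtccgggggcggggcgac
Tnfaip3, chr10:19015411-19015547, minus strand: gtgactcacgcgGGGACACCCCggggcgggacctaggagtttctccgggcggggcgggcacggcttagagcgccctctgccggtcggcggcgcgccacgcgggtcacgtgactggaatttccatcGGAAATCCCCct
Rela, chr19:5637391-5637482, plus strand: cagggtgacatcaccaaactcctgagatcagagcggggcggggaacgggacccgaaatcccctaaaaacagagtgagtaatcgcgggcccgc

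In Nfkb2 and in Rel the 11 capitals are a pair of overlapping matches, which began 39 and 38 bases before the start of Nfkb2 and 92 and 91 bases before that of Rel. Nfkb2 held a further match at −11 (GGGGCTTTCC) and others at its other starts. The match of Nfkbia, GGAAATTCCC, began at −29, and that of Nfkbie, GGGGGATTCC, at −106. Tnfaip3 had matches at −125 (GGGACACCCC) and −12 (GGAAATCCCC), while Bcl3 had 1 just after its start, at position 3 (GGGAAGTCCC). A match describes letters in a window and was not tested for binding.

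**Figure D1:**
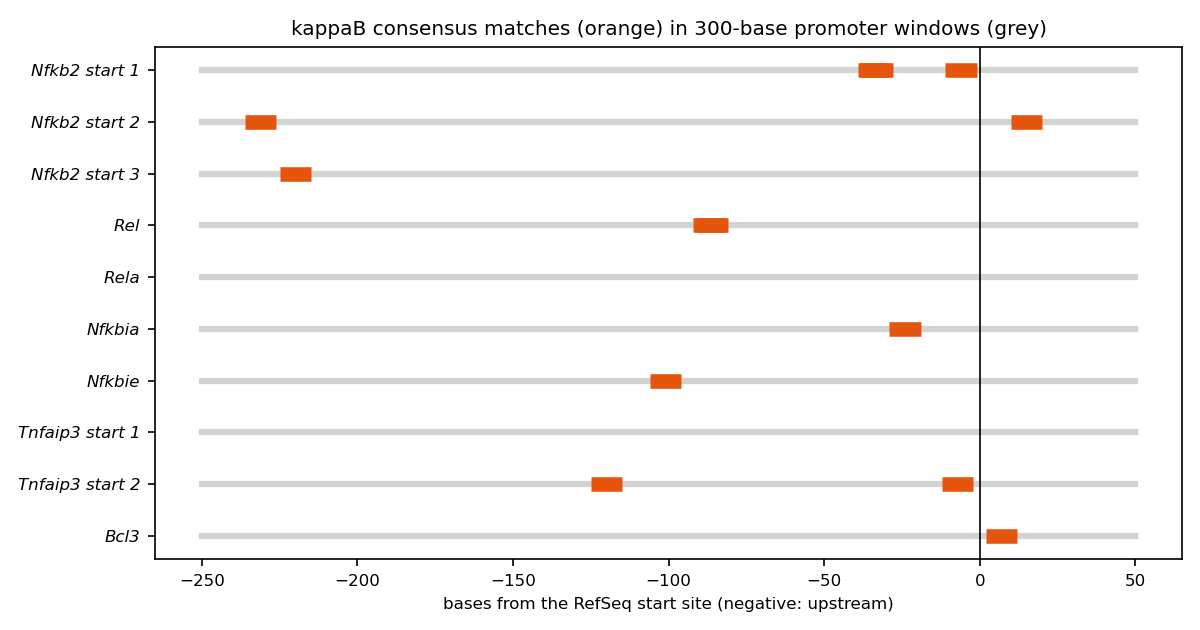
Position of κB consensus matches (orange) in the RefSeq promoter windows of 7 members (grey lines, 250 bases before to 50 after a start, horizontal axis in bases from the start site). Windows with a match number 8 of 10, and those without are Rela and 1 of the starts of Tnfaip3.

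Library depth ran from 13015669 to 19565376 counts. Pcmt1, the targeted gene, stood at 42.8 to 48.9 CPM (counts scaled to library size) in fl/fl and 22.7 to 49.3 CPM in tKO sham kidneys. After UUO it stood at 35.3 to 41.4 CPM in fl/fl and 24.7 to 26.1 CPM in tKO, and with LY2109761 at 25.7 to 39.0 and 23.1 to 28.0 CPM. Its genotype difference passed the edgeR threshold in none of the 3 settings (log2 −0.48 in sham, −0.61 in UUO and −0.29 with LY2109761, edgeR adjusted p = 0.182, 0.0818 and 0.535). Pcmt1 was at 49.3 CPM, a level of fl/fl kidneys, in what is labelled as tKO sham replicate 1. In what is labelled as fl/fl UUO+LY2109761 replicate 3 it was at 25.7 CPM, within the range of tKO kidneys with LY2109761. In tKO sham replicate 3, 69.5% of counts fell on mitochondrially encoded genes, against 30.8% to 35.5% in fl/fl sham and 7.43% to 7.67% in fl/fl UUO kidneys. This share was 33.7% in tKO sham replicate 1. It was 49.7% in replicate 2, the only tKO sham library kept where replicates 1 and 3 are left out together. CPM here are counts over TMM-scaled library sizes, so every direction is relative to the bulk of expressed genes. The tubule markers of the kidney were abundant in sham (summed level of 12 genes 8851 to 10222 CPM) and lower after UUO (1929 to 3827 CPM in both genotypes). The summed level of 18 leukocyte markers went from 168 to 201 CPM in fl/fl sham kidneys to 693 to 882 CPM in fl/fl UUO kidneys. Of these markers Ly6g was at 0 in 5 sham and 7 obstructed libraries, Ncr1 in 4 sham, Ms4a1 in 2 sham, and Cd79a and S100a8 in 1 sham library each. Fewer cells of a type and less RNA per cell cannot be told apart in bulk samples.

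In fl/fl kidneys all 10 members rose with obstruction, by 1.48 (Nfkb1) to 3.62 (Bcl3) on the log2 scale. The libraries of the sham and UUO groups did not overlap for any of the 10. Their median change was 2.52, against 0.02 over all genes tested. Of all genes, 20.9% were called higher by edgeR in this comparison and 28.8% had UUO libraries above all sham libraries. With column totals in place of TMM the split over all genes changed from 4031 higher and 3594 lower to 8547 and 906, the median over all genes to 0.76 and that of the members to 3.25. The leukocyte markers moved in the same direction, with 11 of 16 tested called higher, and 10 of 12 tubule markers fell; their part in the values of the members was not tested.

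The canonical activator Rela (ENSMUSG00000024927, GRCm38 chromosome 19, 5637483 to 5648130, plus strand) stood at 44.4, 27.0 and 33.1 CPM in the fl/fl sham libraries and at 109, 104 and 84.0 CPM in the UUO libraries. It rose by 1.51 (log2, SE 0.23) with an edgeR adjusted p of 8.0e-05. Nfkb1 (ENSMUSG00000028163, chromosome 3, 135584655 to 135691547, minus strand), the source of p50, went from 30.8, 39.3 and 30.7 CPM to 107, 106 and 69.2 CPM. Its rise was 1.48 (log2, SE 0.19) with an edgeR adjusted p of 2.3e-05. These 2 genes of the classical p50-RelA dimer had the smallest log2 changes of the set. Rel (ENSMUSG00000020275, chromosome 11, 23736847 to 23770970, minus strand), the lymphoid subunit c-Rel, was the member with the fewest counts, 30 to 41 in the fl/fl sham libraries. Its level was 2.91, 2.22 and 2.38 CPM in sham and 9.16, 9.51 and 9.81 CPM in UUO, with UUO libraries close to each other. The increase of Rel was 1.92 (log2, SE 0.21) with an edgeR adjusted p of 5.7e-06.

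The noncanonical pair had larger log2 changes than the p50-RelA pair, a difference between genes that was not tested. Nfkb2 (ENSMUSG00000025225, chromosome 19, 46304320 to 46312385, plus strand), which encodes the p100 precursor of p52, stood at 24.5, 17.1 and 19.8 CPM in fl/fl sham kidneys and at 105, 107 and 113 CPM after UUO. Nfkb2 increased by 2.40 (log2, SE 0.23) with an edgeR adjusted p of 1.5e-06. Relb (ENSMUSG00000002983, chromosome 7, 19606217 to 19629438, minus strand), its partner, went from 8.60, 5.40 and 8.10 CPM to 43.6, 53.2 and 45.0 CPM. Relb gained 2.68 (log2, SE 0.24) with an edgeR adjusted p of 7.2e-07. In GENCODE M21 Nfkb2 shares 531 exonic bases with AC114539.1 and 299 with Psd, both on the opposite strand, and reads of such bases cannot be assigned without a strand setting, which the sources do not state.

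Among the cytoplasmic inhibitors, Nfkbia (ENSMUSG00000021025, chromosome 12, 55489410 to 55492647, minus strand) had the smallest standard error of the set. It stood at 25.6, 27.7 and 27.8 CPM in fl/fl sham and at 91.2, 99.4 and 104 CPM in fl/fl UUO kidneys. Nfkbia rose by 1.86 (log2, SE 0.15) with an edgeR adjusted p of 3.0e-07. Nfkbie (ENSMUSG00000023947, chromosome 17, 45555703 to 45563169, plus strand) went from 4.55, 3.85 and 3.86 CPM to 18.4, 34.7 and 25.5 CPM, with a wide spread after UUO. Nfkbie rose by 2.68 (log2, SE 0.35) with an edgeR adjusted p of 2.4e-05.

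The nuclear IκB-like gene Bcl3 (ENSMUSG00000053175, chromosome 7, 19808462 to 19822770, minus strand) stood at 6.61, 5.84 and 7.33 CPM in sham and at 105, 71.1 and 68.2 CPM in UUO. Its increase was 3.62 (log2, SE 0.24) with an edgeR adjusted p of 6.5e-08. This was the largest log2 change of the 10. Bcl3 shares 161 exonic bases with the antisense gene Gm16175. Nfkbiz (ENSMUSG00000035356, chromosome 16, 55811375 to 55838899, minus strand) went from 21.7, 20.3 and 19.8 CPM to 161, 109 and 112 CPM. Nfkbiz rose by 2.63 (log2, SE 0.23) with an edgeR adjusted p of 6.0e-07. Tnfaip3 (ENSMUSG00000019850, chromosome 10, 19000910 to 19015657, minus strand), whose product A20 trims ubiquitin chains upstream of the IκB kinases, stood at 5.61, 4.59 and 5.85 CPM in sham. After UUO its libraries held 55.3, 16.7 and 48.4 CPM, replicate 2 lying well under the others but above every sham library. Tnfaip3 rose by 2.91 (log2, SE 0.50) with an edgeR adjusted p of 2.7e-04. Its standard error was the largest among the members.

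**Figure D2:**
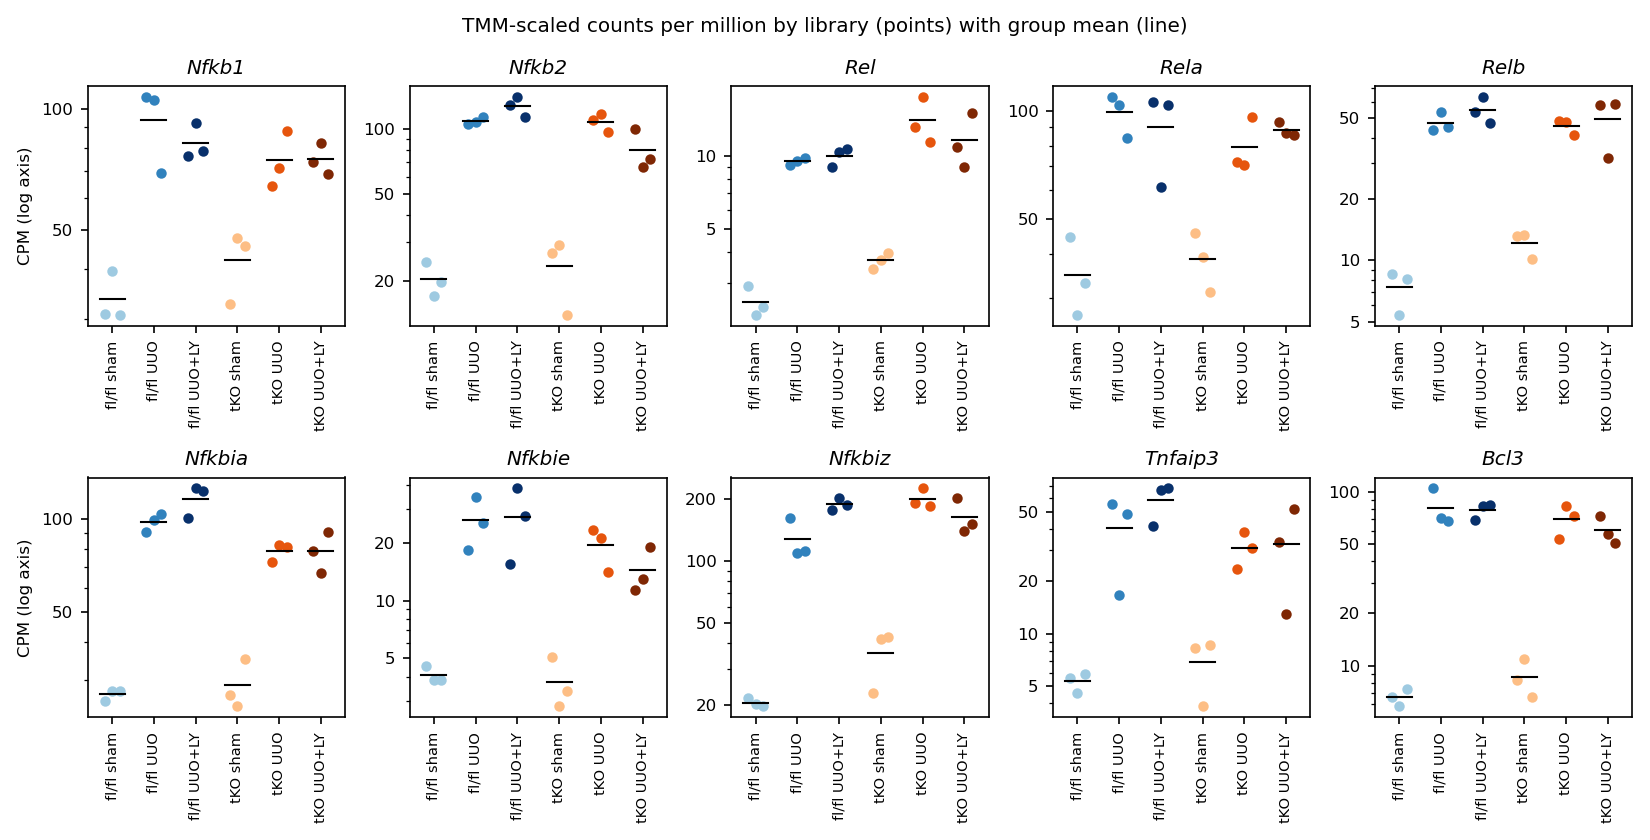
TMM-scaled CPM (vertical log axis, scaled separately for each gene) of the 10 members in the 18 libraries, with points for libraries and lines for means of the 6 groups on the horizontal axis. Every obstructed library, with or without LY2109761, sits above every sham library of its genotype for each member; Tnfaip3 spreads most after UUO, from 16.7 to 55.3 CPM in fl/fl.

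Levels of different genes were compared on the deposited FPKM scale, which divides by gene length but is not TMM-scaled. In fl/fl sham kidneys Nfkbia led with 10.2 ± 0.838 FPKM (SD, n = 3), followed by Rela with 4.63 ± 1.17 FPKM. Nfkb2 (2.39 ± 0.447 FPKM) and Nfkbiz (2.10 ± 0.0941 FPKM) came next and overlapped each other. Nfkb1 (1.55 ± 0.179 FPKM) overlapped Bcl3 (1.44 ± 0.237 FPKM), which in turn overlapped Relb (1.07 ± 0.277 FPKM). Nfkbie (0.449 ± 0.0418 FPKM) stood above Tnfaip3 (0.288 ± 0.0488 FPKM), and Tnfaip3 overlapped Rel (0.251 ± 0.0363 FPKM), the lowest.

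After UUO in fl/fl kidneys Nfkbia still led on the FPKM scale with 62.2 ± 5.92 FPKM. Bcl3 moved from the sixth place in sham to the second, at 29.4 ± 6.31 FPKM, where its libraries lay above those of Rela and overlapped those of Nfkbiz. Rela (22.0 ± 2.78 FPKM), Nfkbiz (21.6 ± 4.12 FPKM) and Nfkb2 (21.1 ± 1.34 FPKM) could not be ranked beyond their spread. Relb followed with 11.4 ± 1.62 FPKM. The libraries of Nfkb1 (7.24 ± 1.63 FPKM) and Nfkbie (4.85 ± 1.66 FPKM) overlapped, as did those of Nfkbie and Tnfaip3 (3.56 ± 1.76 FPKM) and those of Tnfaip3 and Rel (1.59 ± 0.101 FPKM).

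**Figure D3:**
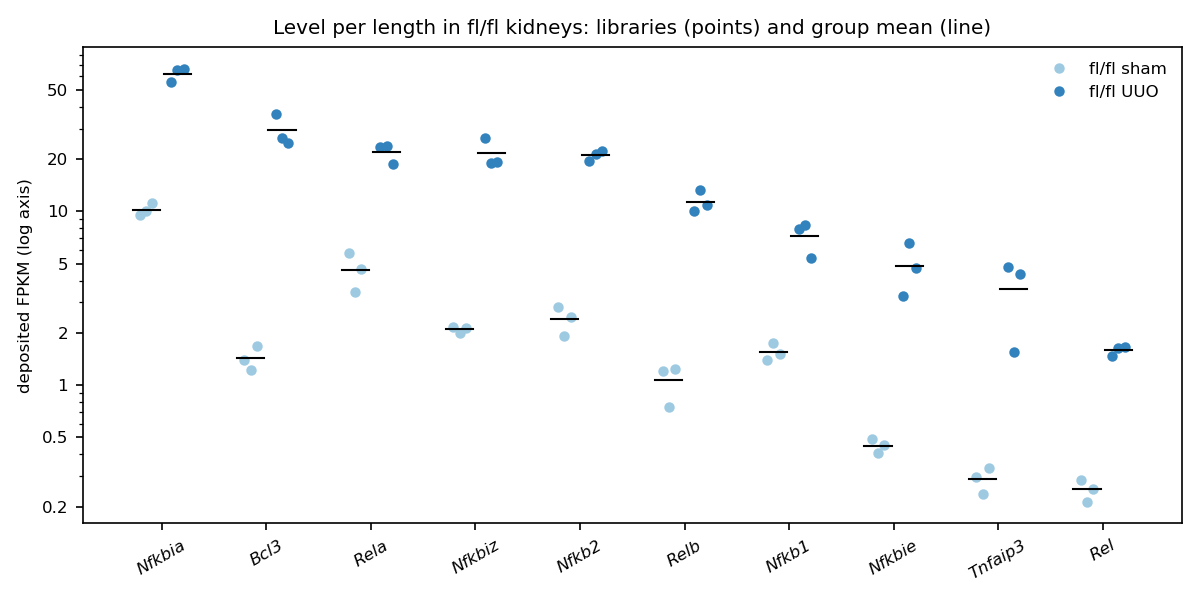
Deposited FPKM (vertical log axis) of the 10 members in fl/fl sham and fl/fl UUO kidneys, with points for the 3 libraries of a group and lines for their mean, ordered by the UUO mean. Nfkbia is highest in both groups, and Bcl3 is the second in UUO, from 24.9 to 36.6 FPKM.

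The same comparison in kidneys labelled tKO again gave 10 of 10 members higher by edgeR, where 21.6% of all genes were called higher, and no overlap between sham and UUO libraries, which 26.0% of all genes showed in that direction. The members' median change was 2.04 on the log2 scale, against 0.02 over all genes (3.07 and 1.06 with column totals, which called 11686 of all genes higher and 715 lower in place of 4168 and 3729). Bcl3 went from 8.27, 11.01 and 6.58 CPM to 53.8, 83.1 and 72.8 CPM and was again at the top, at 3.004, SE 0.24. Nfkbiz went from 22.9, 42.0 and 43.1 CPM to 190.0, 225 and 185 CPM, a log2 change of 2.48, SE 0.23. Replicate 1 of its sham libraries lay apart from the others, near the fl/fl level. Relb rose from 13.2, 13.3 and 10.2 CPM to 48.4, 47.9 and 41.2 CPM, by 1.90, SE 0.23. Nfkb1 had the smallest change, from 32.6, 47.7 and 45.6 CPM to 64.3, 71.4 and 88.4 CPM (0.83, SE 0.19), and without tKO sham replicates 1 and 3 together it was at 0.67 and did not pass (edgeR adjusted p = 0.0810), which left 9 members called.

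The other members in tKO kidneys fell between these. Rela went from 45.7, 39.3 and 31.3 CPM to 72.2, 70.5 and 96.0 CPM (1.03, SE 0.22). Nfkb2 went from 26.8, 29.1 and 14.0 CPM, with replicate 3 lowest, to 109, 117 and 96.8 CPM (2.20, SE 0.23). Rel, low in sham at 3.43, 3.74 and 3.99 CPM, reached 13.1, 17.4 and 11.3 CPM (1.91, SE 0.22). These 3 subunit genes thus rose in both genotypes. Nfkbia rose from 27.0, 24.7 and 35.1 CPM to 72.6, 82.2 and 81.1 CPM (1.45, SE 0.15), and Nfkbie from 5.07, 2.80 and 3.39 CPM to 23.3, 21.3 and 14.1 CPM (2.36, SE 0.36). Tnfaip3 rose from 8.27, 3.84 and 8.57 CPM to 23.4, 38.1 and 31.1 CPM (2.17, SE 0.50), and by 3.03 without tKO sham replicates 1 and 3 together. Beside these values 11 of 16 leukocyte markers were called higher and 11 of 12 tubule markers lower in tKO UUO kidneys, and their part was not tested.

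Whether the response to obstruction differed between genotypes was asked with the interaction term of the same fit. The tKO change was smaller than the fl/fl change for all 10 members, by 0.01 (Rel) to 0.78 (Relb) on the log2 scale, but 3 of the 10 differences were positive when libraries were scaled by column totals, which moved the median over all genes to 0.30. edgeR called 0 members, beside 0.0415% of all genes, with 2 at an unadjusted p under 0.05, and DESeq2 also called 0, beside 431 of all genes. Those 2 were Relb (−0.78, 95% interval −1.46 to −0.10, edgeR adjusted p = 0.322) and Nfkb1 (−0.65, interval −1.22 to −0.08, edgeR adjusted p = 0.328). For Bcl3 the difference was −0.62 (interval −1.29 to 0.05) and for Tnfaip3 −0.73 (interval −2.17 to 0.70).

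**Figure D4:**
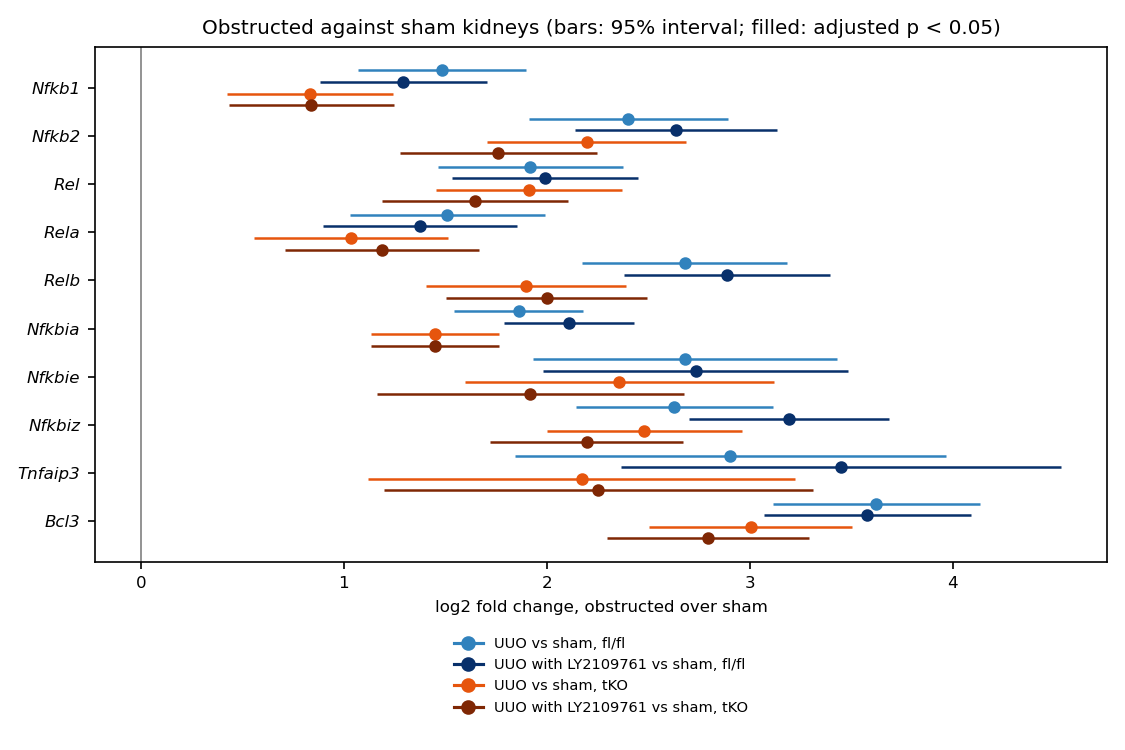
Log2 fold change of obstructed over sham kidneys (horizontal axis) for the 10 members, with points for estimates, bars for 95% intervals of the edgeR fit and filled points for an adjusted p under 0.05. All points are filled, from 0.83 (Nfkb1 in tKO UUO) to 3.62 (Bcl3 in fl/fl UUO); comparisons within a genotype share their sham libraries.

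Treatment with LY2109761 left the members high. Against sham, which these comparisons share with those above, all 10 were higher in obstructed kidneys with LY2109761 in fl/fl (log2 1.29 to 3.58, median 2.68, beside 22.4% of all genes called higher) and in tKO (0.84 to 2.79, median 1.84, beside 20.8% of all genes). Obstructed libraries with LY2109761 lay above all sham libraries for all 10, as for 29.3% of all genes in fl/fl and 25.4% in tKO. With column totals these comparisons called 8017 of all genes higher and 991 lower in fl/fl, in place of 4309 and 3776, and 10932 and 631 in tKO, in place of 4002 and 3660. In tKO, Nfkb1 was again at 0.67 and not called without tKO sham replicates 1 and 3 together (edgeR adjusted p = 0.0814), and Tnfaip3 was at 3.10 there against 2.25 with all libraries.

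The direct comparison of UUO+LY2109761 with UUO+DMSO asked what TGF-β receptor inhibition did to the members in the obstructed kidney. In fl/fl kidneys edgeR called 0 of 10, beside 5.15% of all genes, with 1 member at an unadjusted p under 0.05. DESeq2 also called 0, beside 2057 of all genes. That member was Nfkbiz, at 161, 109 and 112 CPM with DMSO and 177, 202 and 187 CPM with LY2109761. Its LY2109761 libraries all lay above its DMSO libraries, as for 16.3% of all genes, at a log2 difference of 0.57 (SE 0.21, 95% interval 0.11 to 1.02, edgeR adjusted p = 0.126). Nfkbia was at 101, 126 and 123 CPM with LY2109761, a difference of 0.25 (interval −0.06 to 0.55). Tnfaip3 was at 41.5, 66.3 and 67.9 CPM, a difference of 0.54 (interval −0.42 to 1.51). None of these 3 differences passed the threshold. The share of mitochondrially encoded counts was 7.43% to 7.67% with DMSO and 12.1% to 16.4% with LY2109761 in these fl/fl kidneys, and its part was not tested.

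Of the other members with LY2109761 in fl/fl kidneys, Rela was at 106, 61.5 and 104 CPM, with replicate 3 (the replicates of this group are numbered 1, 3 and 4) below every DMSO library, and Nfkb1 at 76.4, 92.2 and 78.5 CPM. Nfkb2 stood at 129, 139.9 and 113 CPM and Relb at 53.5, 63.4 and 46.9 CPM. Rel was at 8.94, 10.4 and 10.6 CPM. Differences of these 5 subunit genes ran from −0.19 (Nfkb1) to 0.23 (Nfkb2). Nfkbie was at 15.5, 38.6 and 27.6 CPM and Bcl3 at 69.3, 83.4 and 84.2 CPM, with differences of 0.05 (interval −0.63 to 0.74) and −0.04 (interval −0.50 to 0.41).

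In tKO kidneys the difference between LY2109761 and DMSO ran from −0.44 (Nfkbie and Nfkb2) to 0.16 (Rela). Neither edgeR nor DESeq2 called a member, 0 of 10 in each case, with 0 at an unadjusted p under 0.05 in edgeR. Of all genes edgeR called 0.171%, and DESeq2 called 946. Nfkb2 was at 99.8, 66.6 and 72.8 CPM with LY2109761 (interval of the difference −0.90 to 0.03). Nfkbiz was at 202, 139.6 and 151 CPM (−0.28, interval −0.74 to 0.17), and Tnfaip3 at 33.4, 12.9 and 51.6 CPM (0.08, interval −0.89 to 1.05). For Nfkbia, at 78.6, 66.7 and 90.8 CPM, the interval was −0.30 to 0.31, the narrowest of the set. Rela (93.3, 86.7 and 85.9 CPM) and Nfkb1 (73.9, 82.4 and 68.8 CPM) stayed within 0.16 of their DMSO level.

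The 2 estimates for Nfkbiz, 0.57 in fl/fl and −0.28 in tKO kidneys, had opposite signs. The interaction of genotype and LY2109761 was −0.85 for it (SE 0.30, 95% interval −1.49 to −0.21, edgeR adjusted p = 0.0724), short of the threshold. It passed in a fit of only the 4 obstructed groups (−0.85, edgeR adjusted p = 0.0440), without fl/fl UUO replicate 1 (−1.05, edgeR adjusted p = 0.0487) and without tKO UUO+LY2109761 replicate 1 (−1.02, edgeR adjusted p = 0.0387). The fit of 4 groups called 3142 of all genes, against 2666 with all 18 libraries. The interaction of Nfkbiz did not pass with the other normalizations, without the filter, with DESeq2 or with the replicate block. Over the 10 members this interaction ran from −0.85 to 0.29. edgeR called 0, beside 13.8% of all genes, with 2 at an unadjusted p under 0.05 (Nfkbiz, and Nfkb2 at −0.67, edgeR adjusted p = 0.160). DESeq2 called 0, beside 3527 of all genes.

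Genotypes were then compared within each treatment, comparisons that reuse the same libraries as those above. In sham kidneys Nfkbiz was the single member called, higher in tKO, where 5.76% of all genes were called higher. Its level was 21.7, 20.3 and 19.8 CPM in fl/fl and 22.9, 42.0 and 43.1 CPM in tKO, the library labelled tKO sham replicate 1 lying close to fl/fl. Replicates 2 and 3 of tKO sham also had the larger shares of mitochondrially encoded counts, 49.7% and 69.5%, against 33.7% in replicate 1. The part of this share was not tested. The log2 difference of Nfkbiz was 0.80 (SE 0.22, edgeR adjusted p = 0.0295). That call was lost without any 1 of fl/fl sham replicates 1, 2 and 3 and tKO sham replicates 2 and 3 (0.65 to 0.83, edgeR adjusted p = 0.0619 to 0.133) and with column totals (0.41, edgeR adjusted p = 0.322). Relb, at 8.60, 5.40 and 8.10 CPM in fl/fl and 13.2, 13.3 and 10.2 CPM in tKO, was next with 0.74 (SE 0.23, edgeR adjusted p = 0.0503). Rel followed with 0.56 (SE 0.22, edgeR adjusted p = 0.105). For these 3 genes every tKO sham library was above every fl/fl sham library, as for 14.1% of all genes. The difference was above 0 for 9 of the 10 members, Nfkbie being the exception, but for 6 with column totals, which called 70 of all genes higher and 222 lower in place of 1109 and 1266. Beside this, 1 of 16 leukocyte markers was called higher in tKO sham kidneys, and their median difference was 0.75.

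In UUO kidneys Nfkbiz was again the single member called, beside 8.27% of all genes called higher in tKO (1593 higher and 1858 lower, or 365 and 317 with column totals). Its libraries stood at 161, 109 and 112 CPM in fl/fl and 190.0, 225 and 185 CPM in tKO, without overlap, a log2 difference of 0.65 (SE 0.21, edgeR adjusted p = 0.0462). The call was lost without fl/fl UUO replicate 2 or 3 or any 1 of the tKO UUO libraries (0.55 to 0.70, edgeR adjusted p = 0.0727 to 0.149), and it was kept without fl/fl UUO replicate 1. Rel stood at 9.16, 9.51 and 9.81 CPM in fl/fl and 13.1, 17.4 and 11.3 CPM in tKO (0.55, SE 0.20, edgeR adjusted p = 0.0658). Nfkbia pointed the other way, 91.2, 99.4 and 104 CPM against 72.6, 82.2 and 81.1 CPM, with every tKO library below every fl/fl library and a difference of −0.32 (SE 0.14, edgeR adjusted p = 0.130). Libraries without overlap were found for 21.8% of all genes in the upward and 20.6% in the downward direction. Differences of the other 7 members ran from −0.42 (Nfkbie) to −0.01 (Nfkb2), none past the threshold. The share of mitochondrially encoded counts also differed, at 7.43% to 7.67% in fl/fl UUO and 9.88% to 16.2% in tKO UUO kidneys. Its part was not tested. Of 16 leukocyte markers 3 were called higher in tKO UUO kidneys, where their summed level was 808 to 1651 CPM, and 3 of 12 tubule markers lower; their part in these differences was not tested.

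In obstructed kidneys with LY2109761 the single call was Nfkbia, lower in tKO, beside 2.09% of all genes called lower (171 higher and 402 lower, or 11 and 12 with column totals). It stood at 101, 126 and 123 CPM in fl/fl and 78.6, 66.7 and 90.8 CPM in tKO, without overlap, a log2 difference of −0.57 (SE 0.14, 95% interval −0.87 to −0.26, edgeR adjusted p = 0.0452). The call was lost when any 1 of these 6 libraries was left out (−0.68 to −0.46, edgeR adjusted p = 0.0717 to 0.180). Nfkb2 libraries did not overlap either, with 129, 139.9 and 113 CPM in fl/fl and 99.8, 66.6 and 72.8 CPM in tKO (−0.68, SE 0.22, edgeR adjusted p = 0.102); 14.2% of all genes had no overlap in that direction. Nfkbie (−0.91, SE 0.33, edgeR adjusted p = 0.137) and Tnfaip3 (−0.84, SE 0.46, edgeR adjusted p = 0.328) had larger estimates and overlapping libraries. Here 1 of 16 leukocyte markers was called higher in tKO, with summed levels of 627 to 723 CPM in fl/fl and 868 to 1061 CPM in tKO.

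**Figure D5:**
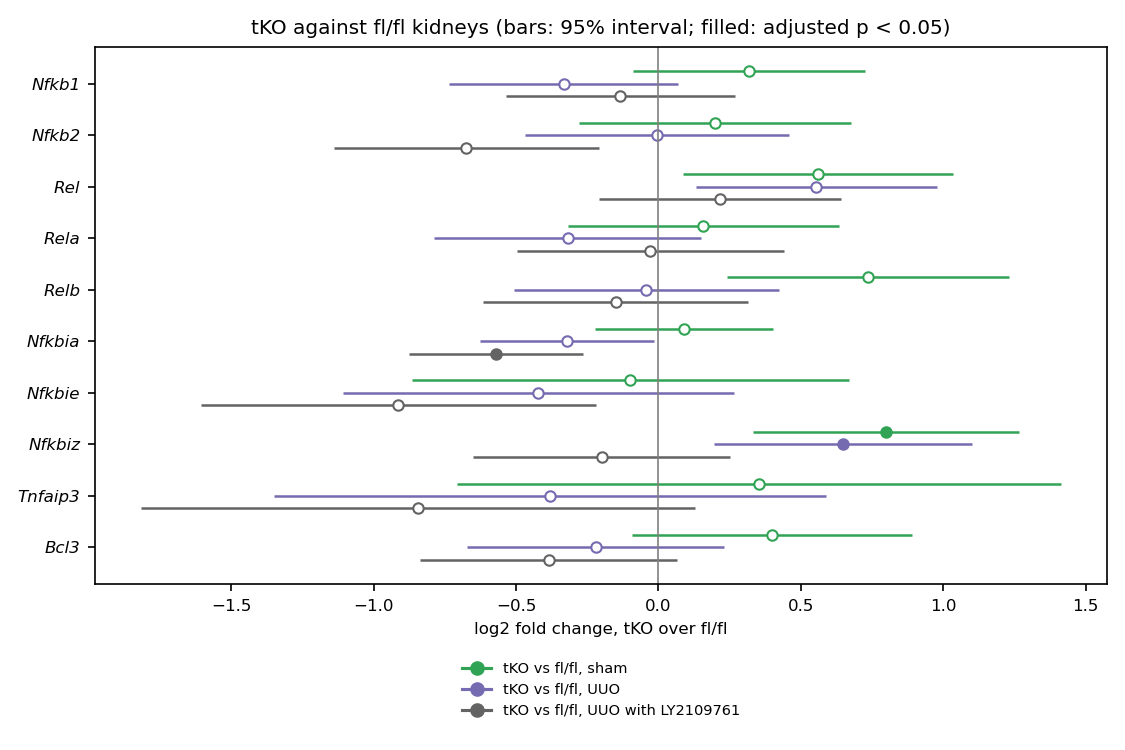
Log2 fold change of tKO over fl/fl kidneys (horizontal axis) for the 10 members in sham, UUO and UUO+LY2109761 kidneys, with points for estimates, bars for 95% intervals of the edgeR fit and filled points for an adjusted p under 0.05. Filled points are Nfkbiz in sham (0.80) and UUO (0.65) and Nfkbia with LY2109761 (−0.57), and each of these 3 calls was lost in several alternative fits.

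The genes upstream of the members were examined in the same comparison of fl/fl UUO with sham kidneys, in which 20.9% of all genes were called higher and 18.7% lower and the median over all genes was 0.02. Of 10 ligand genes 8 were tested and 5 rose (median 2.59), among them Ltb, a lymphotoxin chain that signals through the noncanonical pathway (3.56), the interleukin gene Il1b (3.35) and Tnfsf12, which encodes TWEAK (1.24). Of 17 receptor genes 16 were tested and 12 rose (median 1.67), with the TWEAK receptor gene Tnfrsf12a at 3.52, the TNF receptor gene Tnfrsf1b at 3.35 and the Toll-like receptor gene Tlr2 at 3.79. Adaptors and ubiquitin ligases rose in 15 of 23 cases (median 0.82), including Birc3 (2.60), Traf1 (2.22) and Myd88 (1.15). By contrast, of 11 IκB kinases and activators 4 rose and 1 fell (median 0.19). Chuk, which encodes IKKα, fell from 154 ± 15.7 to 85.6 ± 9.26 CPM (SD, n = 3, log2 −0.85), while Map3k14 (NIK, the kinase that activates IKKα in the noncanonical pathway) rose from 19.7 ± 2.47 to 43.9 ± 7.19 CPM (1.15) and Map3k8 rose by 1.76.

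Other IκB proteins and A20 partners rose in 6 of 13 cases and fell in 1 (median 0.59). Nfkbid, another nuclear IκB, rose from 1.60 ± 0.954 to 18.4 ± 1.70 CPM (SD, n = 3, log2 3.50). Nfkbib, which encodes IκBβ, rose by 0.79 and the A20-binding protein gene Tnip3 by 2.16. Of 25 textbook target genes 18 rose and 1 fell (median 2.85), among them the chemokine gene Ccl2 (5.86) and the adhesion molecule genes Vcam1 (5.87) and Icam1 (2.83). The marker lists had Cd68 at 3.10, Lyz2 at 3.58 and Itgax at 3.94 for leukocytes, and Slc12a1 at −2.97, Atp6v1b1 at −1.93 and Calb1 at −4.43 for tubules, and were not set against the members in any test. These were the 3 genes of each list with the smallest p, and other markers overlapped between sham and UUO. Csf1r stood at 98.0 to 132 CPM in fl/fl sham and 101 to 111 CPM in fl/fl UUO kidneys. Cd8a was at 7.47 to 9.45 and 4.56 to 9.22 CPM, and the tubule marker Umod at 745 to 1007 and 683 to 1002 CPM.

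In tKO kidneys obstruction raised 6 of 8 ligands, 12 of 16 receptors (1 fell), 13 of 23 adaptors (2 fell), 4 of 11 kinases and activators (2 fell), 7 of 13 other inhibitors and 19 of 25 targets (1 fell), beside 21.6% of all genes called higher and 19.4% lower. Chuk fell by 1.05 and Map3k14 rose by 1.18. Between genotypes in UUO kidneys, 2 other inhibitors, 3 kinases and activators, 4 adaptors, 3 receptors and 2 ligands were higher in tKO, and 1 other inhibitor, 2 adaptors, 1 receptor and 3 targets were lower, where 8.27% of all genes were higher and 9.65% lower. LY2109761 against DMSO in fl/fl kidneys called 1 of 13 other inhibitors, 1 of 11 kinases and activators and 1 of 23 adaptors higher and 1 of 25 targets lower, beside 2.52% of all genes higher and 2.62% lower. In tKO kidneys edgeR called 0 genes of these 6 lists, beside 33 of all genes.

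Across the 6 group means of log2 CPM, each centred on its own mean, the most alike pair of members was Nfkb1 and Rela, with a root-mean-square difference of 0.105. Nfkb2 and Nfkbie followed with 0.160, and Nfkb1 and Bcl3 were the least alike with 1.01. Among 12857 genes with a mean of at least 5 CPM, the closest to Rel was Bmp1 (0.0269), the closest to Rela Nr1i2 (0.0417), the closest to Nfkbia Lsmem2 (0.0566), the closest to Nfkb1 Serinc5 (0.0638) and the closest to Nfkb2 Plac8 (0.0684). For Relb it was Fyb2 (0.0937), for Tnfaip3 Bdkrb2 (0.103), for Nfkbie Cebpd (0.133), for Nfkbiz Tifab (0.147) and for Bcl3 Arid5a (0.155). Over 6 points that are mostly set by sham against obstruction, a near match is a description.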

How the data were processed

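The deposited table holds, for each gene and library, whole-number read counts and FPKM (fragments scaled by gene length and library size), made by the authors. The submitters' processing notes name fastp, HISAT2, StringTie and, among builds, GRCm38/mm10; the counting step, annotation and strand setting are not given in the sources used here. RNA was extracted with TRNzol Universal Reagent for an ABclonal mRNA kit, per the labels' protocols. The loci in the deposited table differ from GRCm38 for most genes (1396 of 51884 matched IDs had the same coordinates), so coordinates were taken from GENCODE M21 (GRCm38) by gene ID.

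Counts of all 18 libraries were fitted together with the quasi-likelihood test of edgeR 4.0.16 under R 4.3.3 (filterByExpr, TMM, 6 group means, 12 residual degrees of freedom) on 19256 genes, with Benjamini-Hochberg adjustment and a threshold of 0.05. The standard error is the log2 fold change over the square root of F, and intervals are 95%. CPM is the count over the TMM-scaled library size. The fit was tested on simulated counts. No 2 libraries of a group agreed within sampling noise (at least 45.3% of genes differed beyond Poisson error). Named genes were all 10 members, Pcmt1, up to 3 genes of each list with the smallest p in fl/fl UUO against sham, and for each member the gene with the closest group means. Csf1r, Cd8a and Umod were added as markers whose fl/fl sham and UUO libraries overlapped. The members and lists were chosen with earlier results of these data known. Alternatives covered normalization, filtering, DESeq2 1.42.0, the libraries in the fit, a replicate block and each library left out, and 1 more, tKO sham replicates 1 and 3 left out together, was chosen after seeing the data.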

Additional observations from a re-analysis of the deposited data

How the results depend on the processing

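The number of members called higher in obstructed over sham kidneys was 10 in each of the 4 comparisons under RLE, column totals, TMM without mitochondrial genes, no filter, DESeq2, only the groups compared, the replicate block and with each library left out (10 to 10); it was 9 in both tKO comparisons without tKO sham replicates 1 and 3 together, a choice made after seeing the data that leaves a lone sham library assumed to vary like the other groups. The genotype calls were less stable. In sham kidneys 1 member was called, against 2 with RLE normalization, TMM without mitochondrial genes or DESeq2 (Nfkbiz and Relb), 0 with column totals, no filter on low counts, only the groups compared or the replicate block, and 0 to 1 with each library left out. Of all genes 2375 were called, against 2408, 2324 and 3384 in the settings with 2 members. The settings with 0 members called 292, 1529, 6 and 1981 of all genes, in the order given. In UUO kidneys 1 was called, against 2 with DESeq2 (Nfkbiz and Rel), 0 with column totals, TMM without mitochondrial genes, no filter, only the groups compared or the replicate block, and 0 to 1 with each library left out. Of all genes 3451 were called, against 4371 with DESeq2. The settings with 0 members called 682, 3476, 2415, 3154 and 3121 of all genes, in the order given. With LY2109761, 1 was called, against 2 with DESeq2 (Nfkbia and Nfkb2), 0 under the same 5 settings as in UUO, and 0 with any library left out. Of all genes 573 were called there, against 1490 with DESeq2 and, under those 5 settings in the same order, 23, 551, 222, 237 and 221. The interaction of genotype and LY2109761 called 0, against 1 (Nfkbiz) with only the groups compared and 0 to 1 with each library left out. Both comparisons of LY2109761 with DMSO and the interaction of genotype and UUO stayed at 0 members. The cause of these changes was not tested. Values of single members were counted where the main edgeR fit gave an unadjusted p under 0.05. Each entry was 1 member in 1 comparison and 1 alternative setting. Of these, 711 were on the same side of the threshold with the same direction, 32 lost and 8 gained a call, and 0 reversed. The tally includes the comparisons of obstructed with sham kidneys, where all 10 members were called. It therefore does not describe the genotype calls, which were less stable as given above. Members above that p were not counted, and some of them changed direction with the setting. In sham kidneys 9 genotype differences were above 0 in the main fit and 6 with column totals. Deviations of same-numbered libraries were weakly correlated (r −0.134 to 0.154 over 40 pairs, 2 above 0.1), and 9 of 18 libraries correlated best with their own number. These values do not settle whether the numbers pair the samples. With the replicate block Nfkbiz was at 0.80 in sham (edgeR adjusted p = 0.0558) and 0.65 in UUO (edgeR adjusted p = 0.0822). Nfkbia was at −0.50 with LY2109761 in that fit (edgeR adjusted p = 0.0976), and the block changed no other call. Over all genes, LY2109761 against DMSO in fl/fl called 991, against 25 with column totals and 2 without fl/fl UUO+LY2109761 replicate 3. Pcmt1 was at 25.7 CPM in that replicate, within the range of tKO kidneys with LY2109761. The interaction of genotype and LY2109761 called 2666 of all genes, against 289 with column totals and 3142 with only the groups compared. Counts in sham libraries were low for Rel (20 to 46) and Nfkbie (17 to 68).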

Other observations

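Within a library the ratio of 2 members' counts does not depend on the scaling of libraries, so 3 such ratios, chosen after the values had been seen, were read as a description with no test. Relb counts per Rela count were 0.194 to 0.245 in fl/fl sham libraries, 0.398 to 0.535 in fl/fl UUO and 0.452 to 1.03 in fl/fl UUO+LY2109761. In tKO kidneys the same ratio was 0.289 to 0.339 in sham, 0.429 to 0.680 in UUO and 0.366 to 0.678 with LY2109761. Obstructed libraries thus held more reads of Relb, the noncanonical subunit, per read of Rela than any sham library of either genotype, and the sham ranges of the genotypes did not overlap.

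Bcl3 counts per Nfkbia count went from 0.211 to 0.264 in fl/fl sham to 0.654 to 1.15 in fl/fl UUO libraries, and stood at 0.662 to 0.686 with LY2109761. In tKO kidneys they were 0.188 to 0.445 in sham, 0.741 to 1.01 in UUO and 0.564 to 0.922 with LY2109761. Nfkb2 counts per Nfkb1 count were 0.434 to 0.795 in fl/fl sham, 0.977 to 1.64 in UUO and 1.44 to 1.69 with LY2109761. For tKO kidneys this last ratio was 0.306 to 0.822 in sham, 1.09 to 1.70 in UUO and 0.808 to 1.35 with LY2109761, where the lowest obstructed library lay within the sham range. Gene length sets the size of each ratio, so ratios are compared between groups and not with 1.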
